A study of Mus musculus with 22 samples.

Results

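Oxidative phosphorylation (OXPHOS) is carried out in the inner mitochondrial membrane by protein complexes that pass electrons from NADH and succinate to oxygen (complexes I to IV) and by the ATP synthase (complex V), which uses the proton gradient so built to make ATP. Each of complexes I, III, IV and V is assembled from many subunits, a few of them encoded in the mitochondrial genome and the rest in the nucleus, and the nuclear ones are translated on cytosolic ribosomes and imported. Their mRNAs are known as abundant and short. Members were the nuclear genes whose mouse symbol begins with Ndufa, Ndufb, Ndufc, Ndufs, Ndufv, Uqcr, Cox4 to Cox8 or Atp5, together with Cyc1 and Sdha to Sdhd, leaving out the assembly factors with Ndufaf symbols, Cox7a2l and Atp5s. Of the 10516 genes in the processed data, 75 met this rule: 36 of complex I, 4 of complex II, 9 of complex III, 10 of complex IV (with Ndufa4, which is known as a complex IV subunit in spite of its name) and 16 of complex V. The names alone chose them, and no measured value. Cox4i1, Cox4i2, Cox6a2, Cox6b2, Cox7a1 and Cox8b and the mitochondrially encoded subunits were not analysed here.

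The lysates came from NIH3T3 cells, a line of mouse embryonic fibroblasts, and the question was what the loss of DENR does to the translation of these mRNAs. DENR is a factor for translation reinitiation: it helps ribosomes that have finished a short upstream open reading frame (uORF) in a 5′ UTR to start again at the main coding sequence (CDS). All cells carried a lentiviral pLKO.1 hairpin and were selected with puromycin, grown to confluency and harvested with cycloheximide. Lysates were made from cells with Denr shRNA1 (n = 3), Denr shRNA2 (n = 3), scramble shRNA (n = 3) and Gfp shRNA (n = 2), so that 6 knockdown lysates stood against 5 control lysates. Each lysate gave an RPF-seq library of ribosome footprints and an RNA-seq library, 22 in all. The cells are pools of transduced cells of one line, and Denr was reduced and not deleted.

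Denr mRNA stood at 40.5 ± 5.32 RPKM (SD, n = 3) with shRNA1, 17.9 ± 2.70 (n = 3) with shRNA2, 188 ± 2.45 (n = 3) with scramble and 169 ± 6.32 (n = 2) with Gfp shRNA, which is 77.5% and 90.1% below the control mean for the 2 Denr hairpins. RPKM is the number of reads on a region per kilobase of length and per unit of sequencing depth, here scaled by the upper quartile of each library. A library held 10926299 to 21647255 RPF-seq reads or 8504579 to 20082437 RNA-seq reads on CDSs and 5′ UTRs, and the CDSs of the 75 members took 247504 to 509044 and 127247 to 295493 reads. All 7 fibroblast markers looked for were in the data, and their summed RNA level spanned 7141 to 8811 RPKM in knockdown and 6979 to 8451 RPKM in control lysates. Of the markers of other cell types, Cdh1 stood between 2.74 and 4.05 RPKM and Cdh5 between 0.544 and 1.10 RPKM. In the RNA-seq library of Denr shRNA1 replicate 1 the members stood apart: their median lay 0.29 (log2) above their means over the lysates, against −0.14 to 0.02 in the other 5 knockdown lysates, while the median of all genes lay 0.11 above. In bulk libraries, fewer cells of a kind and less RNA per cell cannot be told apart.

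OXPHOS mRNAs were abundant in the control cells and carried still more footprints than their abundance alone gave. In control lysates the median member had 273 RPKM in RNA-seq against 28.3 for all genes, and 488 RPKM in RPF-seq against 23.1. The 75 members are short, with a median CDS of 423 nt against 1410 nt, and RPKM is a level per length. Counted as whole reads they took 1.69% ± 0.104 (SD, n = 5) of CDS reads of RNA-seq and 2.48% ± 0.0579 of CDS reads of RPF-seq in the control lysates. In the knockdown lysates these shares were 1.67% ± 0.163 (n = 6) and 2.56% ± 0.0823, with ranges of 1.5% to 1.97% and 2.47% to 2.69% that overlapped those of the control lysates (1.58% to 1.85% and 2.41% to 2.55%).

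**Figure D1:**
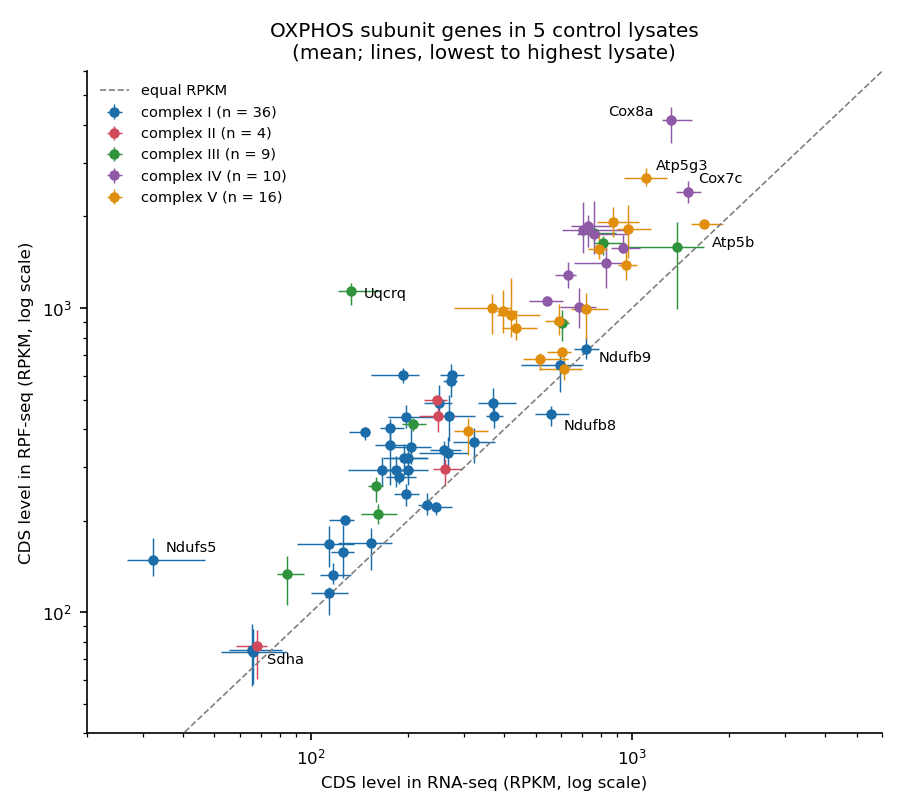
CDS level of the 75 members in RPF-seq against RNA-seq (RPKM, log axes), coloured by complex, with points at the mean of the 5 control lysates and lines from the lowest to the highest lysate. Most points lie above the dashed line of equal RPKM, with Uqcrq and Ndufs5 farthest above it, Cox8a highest in RPF-seq and Ndufb8 below the line.

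The complexes differed in level, with the small subunits of cytochrome c oxidase at the top. Median RNA levels in control lysates were 197 RPKM for complex I, 247 for complex II, 208 for complex III, 745 for complex IV and 608 for complex V. Median footprint levels were 328, 370, 892, 1668 and 985 RPKM in the same order. Within a complex, the subunits were far from equal in RNA: the most abundant exceeded the least abundant 22.4-fold in complex I, 3.87-fold in complex II, 16.4-fold in complex III, 2.75-fold in complex IV and 5.44-fold in complex V. In footprints the ranges were 9.89-fold, 6.43-fold, 13.2-fold, 4.09-fold and 6.78-fold. Complex IV thus had the narrowest spread on both scales, and RNA and footprint levels ran closely together over the members (Spearman's rho 0.908 over 75 genes, as a description).

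In complex I, the NADH dehydrogenase, the highest member in both RNA and footprints was Ndufb9, a supernumerary subunit, at 720 RPKM RNA and 733 RPKM footprints. The 7 core subunits, which hold the flavin and the iron-sulphur clusters, had a median footprint level of 202 RPKM, below the 355 RPKM of the 29 supernumerary subunits, and Ndufs1 was the lowest core subunit on both scales. Ndufs5 had the lowest RNA level of all 75 members, 32.2 ± 8.50 RPKM (SD, n = 5), but 149 ± 16.7 RPKM of footprints. In complex II, succinate dehydrogenase, the flavoprotein Sdha was lowest, with 67.7 ± 5.75 RPKM RNA and 77.8 ± 10.8 RPKM footprints, whereas the iron-sulphur protein Sdhb had the highest RNA level, 262 RPKM, and the membrane anchor Sdhd the highest footprint level, 500.2 RPKM. In complex III, the core protein gene Uqcrc2 was lowest on both scales, at 84.3 RPKM RNA and 133 RPKM footprints, while Uqcrh was highest in RNA (1379 RPKM) and Uqcr11 in footprints (1765 RPKM). Pseudogenes of Uqcrh, Ndufab1, Atp5c1, Atp5k and Atp5l are annotated, so reads of these 5 genes may be shared with copies.

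In complex IV, Cox7c was highest in RNA (1490 RPKM) and Cox5a lowest (542 RPKM). Cox8a had the highest footprint level of all members, 4140 ± 441 RPKM (SD, n = 5), and Cox5b the lowest of the complex, 1011 RPKM. In complex V, Atp5b, the catalytic beta subunit of the F1 head, had the highest RNA level of all members, 1673 ± 153 RPKM, and Atp5o of the peripheral stalk was lowest on both scales, at 307 RPKM RNA and 394 RPKM footprints. The alpha and beta subunits enter the F1 head in equal numbers, but beta footprints were 3.01 ± 0.160 times (SD, n = 5) those of alpha (Atp5a1) in control and 3.05 ± 0.132 times (n = 6) in knockdown lysates. The 3 genes of the c subunit (Atp5g1, Atp5g2, Atp5g3), whose mature proteins are the same and form the membrane ring, summed to 8.76 ± 0.696 times the footprints of alpha in control and 9.29 ± 0.828 times in knockdown lysates. Atp5g1, Atp5g2 and Atp5g3 gave 16.5%, 34.8% and 48.7% of these c-subunit footprints in control lysates and 17.1%, 34.3% and 48.7% in knockdown lysates. Of 18 such ratios and shares within complex V, the smallest p was that of delta (Atp5d) to alpha in RNA, 0.598 ± 0.0413 in control and 0.687 ± 0.0394 in knockdown lysates (exact permutation test, p = 0.0108, Benjamini-Hochberg adjusted p = 0.195).

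Translation efficiency (TE), the log2 ratio of CDS footprints to CDS RNA in a lysate, was high for the members. The median control TE was 0.69 over the members and −0.08 over all genes, 73 of 75 members were above the all-gene median, 49 were among the top 25% of all genes and 28 among the top 10%. The highest control TEs were those of Uqcrq, a small complex III subunit, at 3.10 ± 0.247 (SD, n = 5), of Ndufs5 at 2.23 ± 0.297 and of Ndufab1, the mitochondrial acyl carrier protein, at 1.65 ± 0.208. The lowest were those of Ndufb8 (−0.31 ± 0.141), Ndufv2 (−0.14 ± 0.133) and Ndufb5 (−0.03 ± 0.148). Among all genes short CDSs went with high TE, and the members lay along the same trend: Spearman's rho of control TE against CDS length was −0.606 over the 75 members and −0.414 over the 10516 genes. These values describe genes of the same libraries and were not tested.

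The 5′ UTRs were also short, and 1 form of start was more frequent in the members than in all genes, given as a description without a test. Behind the RPKM values stood a median 5′ UTR of 105.5 nt for the members and 217 nt for all genes. For each gene the GENCODE vM21 transcript with the longest CDS was read, and the CDS began with ATGGCG in 24 of 75 members (32.0%) and in 12% of all genes, and a purine stood 3 bases before the ATG in 97.3% and 86.3%. At least one AUG-started uORF of 9 nt or more was present in 42.7% of members and in 50.3% of all genes. With the longest 5′ UTR taken instead, these shares were 25.3% and 10.2% for ATGGCG and 57.3% and 62.3% for a uORF. For 46 of the 75 members a transcript with the 5′ UTR and CDS lengths behind the RPKM was found, and over these the shares were 26.1% for ATGGCG and 41.3% for a uORF (13.1% and 46.6% over all genes with such a transcript). The following windows hold 12 bases of 5′ UTR and 18 bases of CDS (GRCm38, 5′ to 3′, with the ATG or, where present, ATGGCG in capitals). Uqcrb and Sdhb show this start with A at the third base before it, and Uqcrc2, Uqcrfs1 and Cox8a the other kind of start. The kind of start was not compared with the 5′ UTR footprints given below.
Uqcrb, chr13:66905294-66905323, minus strand: tctcaggtcaaaATGGCGggccgatctgct
Sdhb, chr4:140961393-140961422, plus strand: tcaggagccaaaATGGCGgcgacggtcggg
Uqcrc2, chr7:120635278-120635307, plus strand: actgctagagccATGaagctcctcagcagg
Uqcrfs1, chr13:30545230-30545259, minus strand: gcagctgtcgccATGttgtcggtcgccgcc
Cox8a, chr19:7217495-7217524, minus strand: ttccgcgccgtcATGtctgtcctgacgcca

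No change in RNA level was called for any member, and the limits on such changes were narrow. No member passed the FDR of 0.1 (limma), where 3.55% of all genes did, and at an unadjusted p under 0.05 there were 2 members lower and 1 higher (4.92% and 11.2% of all genes). Voom on the recovered reads also called 0. The median change was 0.00 (log2) over the members and 0.03 over all genes, and the changes spanned −0.21 to 0.22. The 95% confidence interval of the change lay within ±0.5 for all 75 members, so that larger changes in either direction were outside the interval of each. The extremes were Ndufs4, a supernumerary subunit of complex I, from 201 ± 23.3 RPKM (SD, n = 5) in control to 175 ± 25.3 RPKM (n = 6) in knockdown lysates (limma, adjusted p = 0.373), and Uqcrq, from 133 ± 16.6 to 154 ± 17.2 RPKM (adjusted p = 0.283). The lysates of both genes overlapped between the groups.

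CDS footprints, which follow both the mRNA level and the ribosomes on it, gave a similar picture, though their calls moved more with the settings of the fit. Again 0 of 75 members passed the FDR, while 10.0% of all genes did, and 3 members were lower and 7 higher at an unadjusted p under 0.05 (10.9% and 12.7% of all genes). Voom on the recovered reads called 1, Uqcr10. With the replicate number as a block 12 were called, among them Sdhc, Ndufs1, Uqcr10, Sdha and Atp5e. The labels do not say that a number marks a shared batch. Shares of all genes called with voom or with the block are not given here. The median change was 0.04 over the members and 0.01 over all genes, 52 of 75 members lay above the all-gene median, and all 75 confidence intervals lay within ±0.5. After correction for CDS length and GC content, the members' median was −0.03.

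The highest footprint changes were those of Atp5e, Uqcr10 and Sdhc. Uqcr10, a small subunit of complex III, had 1759, 1951 and 1946 RPKM of footprints with Denr shRNA1 and 1841, 1761 and 1868 RPKM with shRNA2, against 1498, 1721 and 1689 RPKM with scramble and 1608 and 1690 RPKM with Gfp shRNA. Every knockdown lysate thus exceeded every control lysate, by a mean of 0.18 on the log2 scale (SE 0.06, limma, adjusted p = 0.104). Ndufc1, Ndufs8 and Uqcr11 were also separated in this way, making 4 of 75 members higher and 0 lower, beside 2.48% and 1.97% of all genes. Atp5e, the epsilon subunit of F1, had the highest change (0.19, adjusted p = 0.274), with 1908 to 2202 RPKM in knockdown and 1456 to 2181 RPKM in control lysates. Sdhc, a membrane anchor of complex II, changed by 0.17 (adjusted p = 0.123).

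The lowest footprint changes were those of Ndufs1, Sdha and Ndufa10. Ndufs1, the largest core subunit of complex I, had 66.5, 59.7 and 66.3 RPKM of footprints with Denr shRNA1, 62.9, 58.0 and 65.1 RPKM with shRNA2, 75.3, 76.6 and 91.5 RPKM with scramble and 75 and 57.3 RPKM with Gfp shRNA (change −0.24, SE 0.09, limma, adjusted p = 0.147). Sdha had 69.1, 62.5 and 68.7 RPKM with shRNA1, 69.2, 58.3 and 65.1 RPKM with shRNA2, 80.3, 85.3 and 87.8 RPKM with scramble and 74.9 and 60.5 RPKM with Gfp shRNA (change −0.24, SE 0.09, adjusted p = 0.131). In Ndufs1 and Sdha the scramble lysates lay above all knockdown lysates, and Gfp replicate 2 lay below or among the knockdown lysates. Ndufa10 (−0.22, adjusted p = 0.206) differed between the Denr hairpins, as given further on. Without Gfp replicate 2, 5 members passed the FDR (limma). Ndufs1 (−0.33, adjusted p = 0.0157), Sdha (−0.33, adjusted p = 0.0149) and Uqcrc2 (−0.22, adjusted p = 0.0683) were lower. Uqcr10 (0.19, adjusted p = 0.0826) and Atp5e (0.26, adjusted p = 0.0997) were higher. With scramble as the only control 11 members passed. The shares of all genes called in these fits are not given here.

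No change in TE was called for any member. At the FDR of 0.1, 0 of 75 members were called, beside 0.475% of all genes, and the interaction over the 22 libraries called 0 as well. None reached an unadjusted p under 0.05, where 5.18% of all genes were lower and 1.47% higher. The median change in TE was 0.03 over the members and −0.01 over all genes, and with 1 lysate left out it lay between −0.0103 (without Gfp replicate 1) and 0.0825 (without Denr shRNA1 replicate 1). The changes ran from −0.15 for Uqcrq to 0.18 for Ndufb6, a supernumerary complex I subunit (adjusted p = 0.790). All 75 confidence intervals lay within ±0.5, as did those of 8505 of the 10516 genes. The intervals of the members therefore left out TE changes of that size in either direction.

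**Figure D2:**
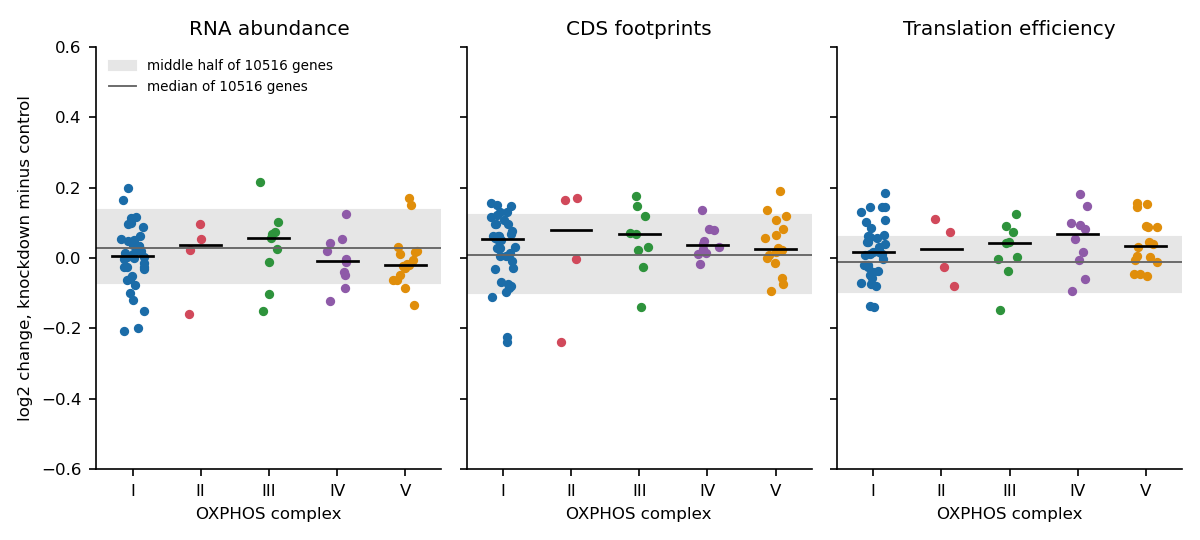
Change of each of the 75 members between the 6 knockdown and the 5 control lysates, by complex, in RNA abundance, CDS footprints and TE (log2 difference of group means). Each point is one gene, short bars are the medians of the complexes, the grey band holds the middle 50% of the 10516 genes and the line across is their median. In all 3 panels the points lie between −0.24 and 0.22.

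Footprints on the 5′ UTRs were few in many members, as they were in many other genes. The median member had 32 RPF-seq reads on its 5′ UTR per library, against 25 over all genes. The coverage filter, 20 or more RPF-seq reads falling on the 5′ UTR in 9 or more of 11 libraries, was met by 5175 of 10516 genes. It was met by 39 of 75 members, 14 in complex I, 1 in complex II (Sdhb), 4 in complex III, 9 in complex IV and 11 in complex V. The other 36 had a median of 3 such reads per library, and 12 of them a median of 0, among them Cyc1, Cox6a1, Sdha and Uqcrb. Since the authors gave ambiguous reads to the CDS first, footprints of ribosomes near the start codon may be counted there. Relative 5′ UTR translation, the log2 ratio of 5′ UTR to CDS footprint density in a lysate, was low in the covered members: the median in control lysates was −3.31, against −0.89 over the 5175 covered genes. The lowest covered members were Atp5g2, whose 5′ UTR had 0.336% of its CDS density, Atp5a1 (1.66%) and Cox5b (1.70%), and the highest were Atp5d (45.9%), Cox6b1 (32.0%) and Cox6c (29.4%), each as the mean 5′ UTR level divided by the mean CDS level of the control lysates.

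Relative 5′ UTR translation was higher in Denr knockdown lysates for 17 of the 39 covered members and lower for 0 (limma, FDR 0.1), beside 17.9% of covered genes that were higher and 0.0386% that were lower. At an unadjusted p under 0.05, 24 members were higher and 0 lower (33.3% and 0.0773% of covered genes). The median change was 0.51 (log2) over the members and 0.33 over all covered genes. Above 0 were 38 of 39 members and 93.5% of covered genes, and 32 members were above the all-gene median. By complex, 5 of 14 covered members of complex I, 0 of 1 of complex II, 2 of 4 of complex III, 6 of 9 of complex IV and 4 of 11 of complex V were higher. In RNA-seq the 5′ UTR to CDS ratio of these 39 members changed by a median of 0.06 (0.03 over all covered genes), with 0 called by limma (0.0% of covered genes) and 1 lower at an unadjusted p under 0.05 (2.03%).

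**Figure D3:**
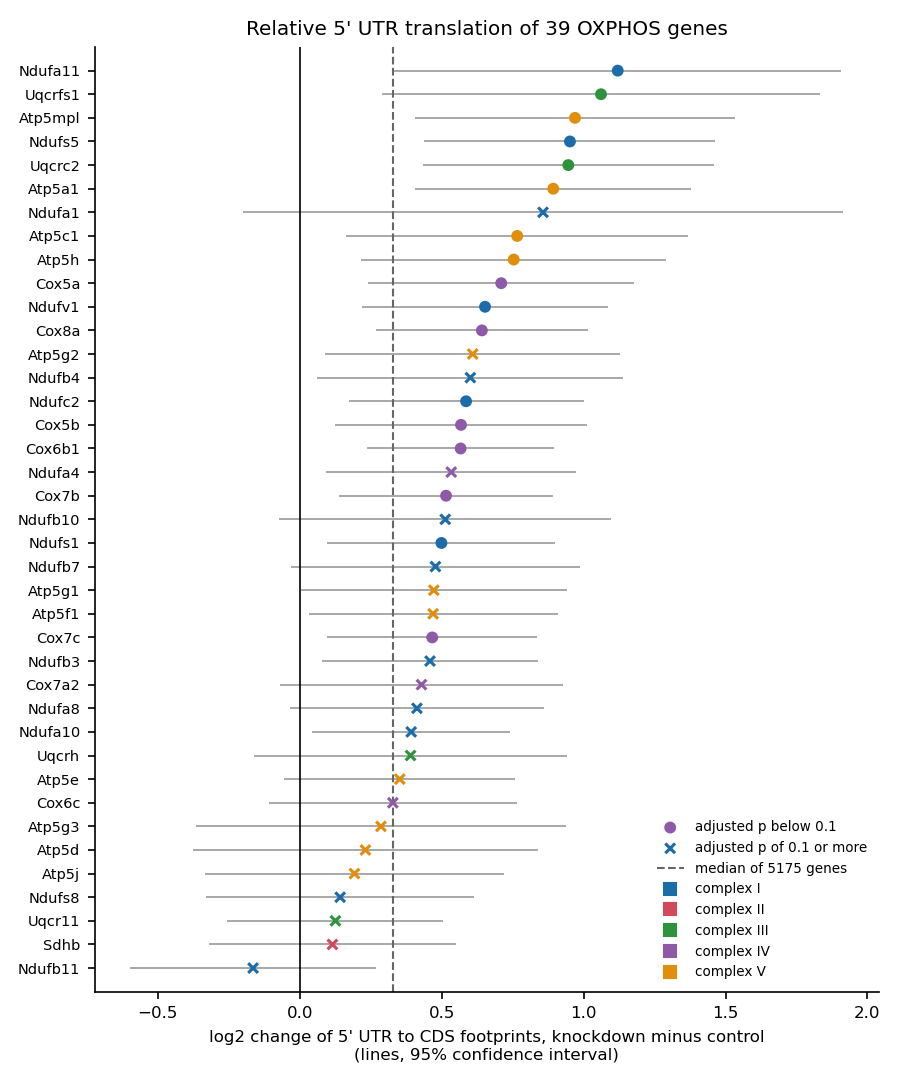
Change in relative 5′ UTR translation (log2, knockdown minus control) of the 39 covered members, ordered by size and coloured by complex. Horizontal lines are 95% confidence intervals, filled circles are the 17 genes past the FDR of 0.1, crosses are the others and the dashed line is the median of the 5175 covered genes, 0.33. All points but that of Ndufb11 (−0.16) lie right of 0, and Ndufa11 (1.12) lies farthest.

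The largest changes fell on subunits of complexes I, III and V. Ndufa11, a membrane subunit of complex I, changed by 1.12 (SE 0.37, limma, adjusted p = 0.0810), on 10 to 52 reads per library. Its 5′ UTR had 6.86% to 14.6% of the CDS density in the knockdown lysates (median 10.5%) and 9.50%, 8.26%, 6.24%, 2.75% and 1.63% in the control lysates, Gfp first, so that the groups overlapped. Uqcrfs1, the Rieske iron-sulphur protein, changed by 1.06 (SE 0.37, adjusted p = 0.0843), from a median of 24.1% (range 4.78% to 33.3%) to 39.7% (26.0% to 47.5%). Uqcrc2 changed by 0.95 (SE 0.24, adjusted p = 0.0492), from a median of 11.5% (8.76% to 19.5%) to 23.4% (15.9% to 40.1%). These groups overlapped as well.

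Atp5mpl, a small subunit of the ATP synthase, changed by 0.97 (SE 0.27, limma, adjusted p = 0.0546), from a median of 19.0% (9.83% to 32.8%) to 36.0% (24% to 53.0%). Ndufs5 changed by 0.95 (SE 0.24, adjusted p = 0.0492), from a median of 25.4% (17.1% to 32.9%) to 44.6% (29.0% to 80.9%). For Atp5a1, the alpha subunit, the change was 0.89 (SE 0.23, adjusted p = 0.0492), and the level rose from a median of 1.67% to 2.90%. Atp5c1, the gamma subunit, and Atp5h of the peripheral stalk changed by 0.77 and 0.75.

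In complex IV, Cox8a had 515 to 1205 and Cox6b1 660 to 1238 5′ UTR reads per library, against 53 to 158 for Cox5a and 16 to 49 for Cox5b. Cox8a had 17.8%, 16.6% and 19.2% of its CDS density on the 5′ UTR with Denr shRNA1 and 13.3%, 15.9% and 12.3% with shRNA2, against 10.6%, 10.2% and 9.59% with scramble and 8.13% and 12.1% with Gfp shRNA. Cox6b1 had 49.2%, 49.3% and 44.9% with shRNA1 and 43.7%, 48.6% and 44.0% with shRNA2, against 33.8%, 37.4% and 23.4% with scramble and 30.1% and 34.4% with Gfp shRNA. In these 2 genes every knockdown lysate exceeded every control lysate, as it did in 4.83% of covered genes, and the changes were 0.64 (SE 0.18) and 0.57 (SE 0.16), each with a limma adjusted p of 0.0546. Cox5a, Cox5b, Cox7b and Cox7c, all subunits of the same oxidase, were the other complex IV genes past the FDR, with changes of 0.71, 0.57, 0.52 and 0.47. Ndufv1, Ndufc2 and Ndufs1 of complex I completed the 17, at 0.65, 0.59 and 0.50.

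At the other end, Ndufb11 had a 5′ UTR density of 9.43% to 14.2% of the CDS in knockdown and 9.73% to 18.8% in control lysates (change −0.16, SE 0.21, limma, adjusted p = 0.543). Sdhb changed by 0.11 (adjusted p = 0.676) and Uqcr11 by 0.13 (adjusted p = 0.599).

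These calls lay close to the threshold and moved with single lysates and with centring of the libraries. The members' median relative 5′ UTR translation, taken as a deviation from each gene's mean, was 0.17, 0.44 and 0.41 in the 3 lysates of Denr shRNA1, −0.01, 0.33 and −0.06 in those of shRNA2, −0.08, −0.09 and −0.55 with scramble and −0.57 and −0.02 with Gfp shRNA. The medians of all covered genes in the same lysates were 0.05, 0.29, 0.23, 0.07, 0.25, 0.03, −0.17, 0.01, −0.30, −0.45 and 0.05. Scramble replicate 3 and Gfp replicate 1 stood lowest in both. Without Denr shRNA2 replicate 2 or without Gfp replicate 1 the count of called members was 0, without shRNA1 replicate 2 it was 1, without shRNA1 replicate 3 it was 5, and without scramble replicate 3, shRNA1 replicate 1 or scramble replicate 1 it was 8, 10 and 11. Without Gfp replicate 2 it was 22. These counts concern the members alone, and the shares of covered genes called in the same fits are not given here. The members' median change stayed between 0.45 and 0.59 in all 11 of these fits. With each library centred on its median over genes, 0 members were called and the median was 0.19. A correction for GC content and length, which also takes out each library's mean, gave 0 calls and a median of 0.16. Both take out the shift shared by all covered genes, whose median change was 0.33 without them.

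**Figure D4:**
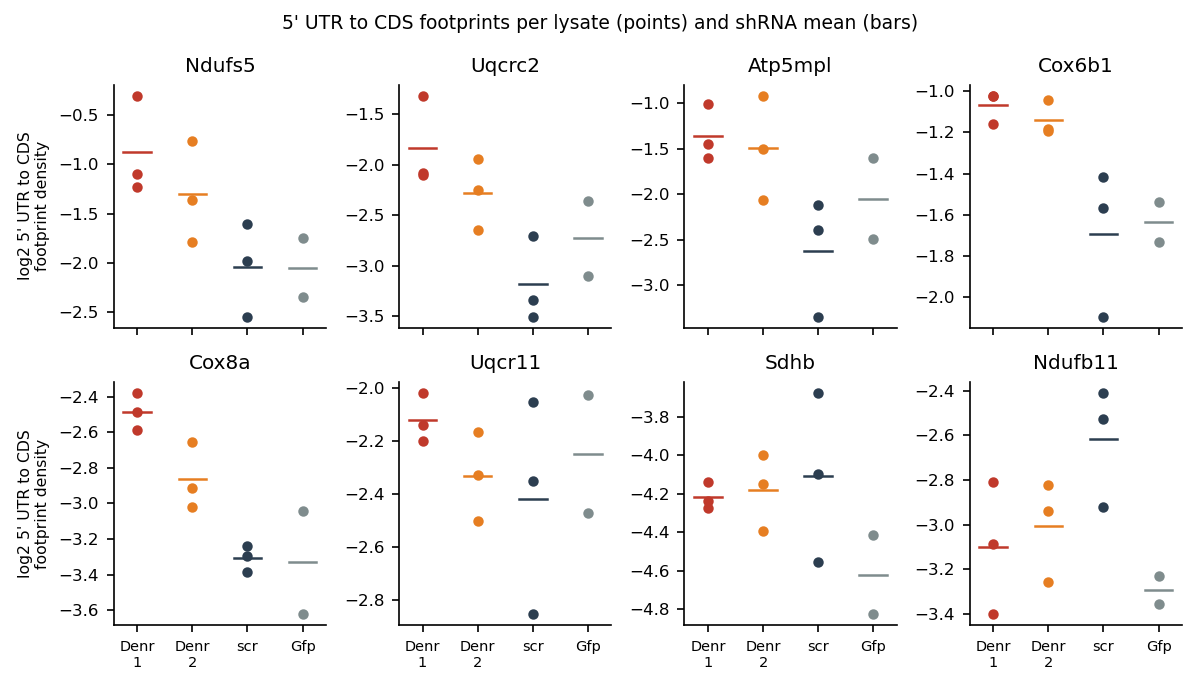
Relative 5′ UTR translation of 8 covered members in each of the 11 lysates (5′ UTR to CDS footprint density in RPF-seq, log2) with Denr shRNA1, Denr shRNA2, scramble (scr) and Gfp shRNA. Each point is one lysate, bars are the means per shRNA, and each panel has its own y axis. The knockdown points lie above all control points for Cox6b1 and Cox8a and overlap them for the other 6 genes.

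Short 5′ UTRs went with larger changes. Of the covered members with a 5′ UTR of up to 100 nt, 5 of 9 were called higher, of those above 100 and up to 200 nt 9 of 19, above 200 and up to 400 nt 2 of 7, and above 400 nt 1 of 4. Over all covered genes the shares in these ranges were 29.1%, 22.7%, 17.2% and 14.4%. Spearman's rho of the change against 5′ UTR length was −0.424 over the 39 members and −0.206 over the 5175 genes. The members with an AUG uORF in the transcript with the longest CDS were called in 6 of 22 cases and those without one in 11 of 17, where all covered genes gave 12.9% and 26.6%. In transcripts whose lengths equalled those behind the RPKM, 4 of 13 and 9 of 13 members were called. Longer 5′ UTRs can hold more AUGs, and length and uORFs were not separated here.

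The uORFs of the 3 covered members with the lowest changes, and of Cox7c, which was called, show how small these reading frames can be. Start and stop codons are in capitals (GENCODE vM21, GRCm38), and each is one of the uORFs of its transcript that are no longer than 30 bases. The uORF of Uqcr11 starts 7 nt from the 5′ end of the transcript and ends 51 nt before the CDS, that of Sdhb ends 14 nt before the CDS, and those of Ndufb11 and Cox7c end 190 nt and 189 nt before it. Whether they are translated was not examined.
Ndufb11, chrX:20617451-20617471, minus strand: ATGataacgttgattcggTAG
Uqcr11, chr10:80406797-80406823, minus strand: ATGcgctatacgtctgcacatgcgTAG
Sdhb, chr4:140961364-140961390, plus strand: ATGccggaggggaaggggtggggcTGA
Cox7c, chr13:86046865-86046885, minus strand: ATGgcgcccggtattatcTAA

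Other genes of the pathway were read beside the subunits. Of 48 assembly factors listed, 45 were in the data, and 0 changed in RNA or TE (limma, FDR 0.1), where 3.55% and 0.475% of all genes did. At an unadjusted p under 0.05, 1 was lower and 5 higher in RNA (4.92% and 11.2% of all genes) and 1 lower and 1 higher in TE (5.18% and 1.47%). In CDS footprints 3 of 45 were called, below the 10.0% of all genes. These were Acad9 (−0.22, adjusted p = 0.0803), which takes part in complex I assembly, and Sdhaf4 (0.31, adjusted p = 0.0193) and Atpaf1 (0.19, adjusted p = 0.0407), assembly factors of complex II and the ATP synthase. The extremes in footprints were Ndufaf4, an assembly factor of complex I (−0.36, adjusted p = 0.107), and Lyrm7, a chaperone for the Rieske protein (0.57, adjusted p = 0.148), neither past the FDR. Among 13 regulators of mitochondrial gene expression, Lrpprc, which stabilises mitochondrial mRNAs, was lower in footprints (−0.20, adjusted p = 0.0911), and Polrmt, the mitochondrial RNA polymerase, had the lowest value but missed the FDR (−0.44, adjusted p = 0.114). None of the 7 carriers and porins was called in RNA, footprints or TE. In relative 5′ UTR translation, 1 of 15 covered assembly factors (Cox17, 0.73), 1 of 7 regulators (Tfam, 0.81), 2 of 3 citric acid cycle genes (Cs, 0.49, and Ogdh, 0.77) and 2 of 7 carriers (Cycs, 0.57, and Slc25a3, 0.83) were higher, beside the same 17.9% of covered genes. Genes of these lists other than the extremes were chosen for naming after their values were seen.

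The 2 Denr hairpins differed on one member in both RNA and footprints. Ndufa10 (chr1:92439010-92473860, minus strand, GRCm38), a supernumerary subunit of complex I, had 248, 241 and 241 RPKM of footprints with Denr shRNA1 and 184, 170 and 182 RPKM with shRNA2, while the control lysates lay between 223 and 264 RPKM. The shRNA2 lysates were thus below all others. The difference, shRNA2 minus shRNA1, was −0.45 (log2, SE 0.06, limma, adjusted p = 0.000952), 9.69% of all genes were called in this contrast, and Ndufa10 was called under all 16 alternatives. In RNA it had 244, 185 and 204 RPKM with shRNA1, 166, 138 and 147 RPKM with shRNA2 and 181 to 216 RPKM in the control lysates, a difference of −0.49 (SE 0.12, adjusted p = 0.0800, with 2.06% of all genes called). Without Denr shRNA1 replicate 1 the RNA difference was −0.38 (adjusted p = 0.126), and it also missed the FDR without Denr shRNA1 replicate 3, Denr shRNA2 replicate 2 or 3, or scramble replicate 1 or 2. No difference in TE was called (0.04, adjusted p = 0.979).

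The other members leaned the same way in RNA. Of 75, 74 were lower with shRNA2 than with shRNA1, beside 5725 of 10516 genes. Their median difference was −0.18 against −0.02 over all genes, and 20 members were lower at an unadjusted p under 0.05 (7.41% of all genes). Without Denr shRNA1 replicate 1, in which the members' RNA was highest, 59 were lower and 16 higher, the median difference was −0.09 against −0.00 over all genes, and 6 were lower at an unadjusted p under 0.05 (5.33% of all genes). The share of all genes lower at any p in that fit is not given here. In footprints the members' median difference was −0.05 and in TE it was 0.12. In TE 0 members were called (0.0% of all genes), and 2 were higher at an unadjusted p under 0.05 (2.02%). Over all genes, short CDSs went with a lower RNA difference, shRNA2 minus shRNA1 (Spearman's rho against CDS length 0.2995 over 10516 genes, as a description). The members are short, with a median CDS of 423 nt against 1410 nt. Whether their lean in RNA goes beyond this length trend was not tested.

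Between the control hairpins, 3 members had fewer footprints with Gfp than with scramble shRNA, where 8.48% of all genes were called: Sdha (−0.33, limma, adjusted p = 0.0923), Uqcrc2 (−0.31, adjusted p = 0.0940) and Ndufs4 (−0.24, adjusted p = 0.0896). In RNA and TE 0 members were called between the control hairpins, beside 0.704% and 0.0% of all genes. At an unadjusted p under 0.05 there were also 0, where 3.27% of all genes were lower and 6.42% higher in RNA, and 0.837% lower and 1.38% higher in TE. In footprints the count of 3 became 0 without scramble replicate 3, Denr shRNA1 replicate 1 or 2, or Denr shRNA2 replicate 1 or 2. It was 1 without Denr shRNA2 replicate 3 or scramble replicate 2, and 11 without scramble replicate 1. Over all lysates, Sdha and Uqcrc2 differed between the control hairpins by as much as or more than on Denr knockdown (−0.24 and −0.14). Without Gfp replicate 2, which leaves 1 Gfp lysate, the differences between the control hairpins were −0.17 and −0.18. Without Gfp replicate 1 they were −0.48 and −0.45.

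**Figure D5:**
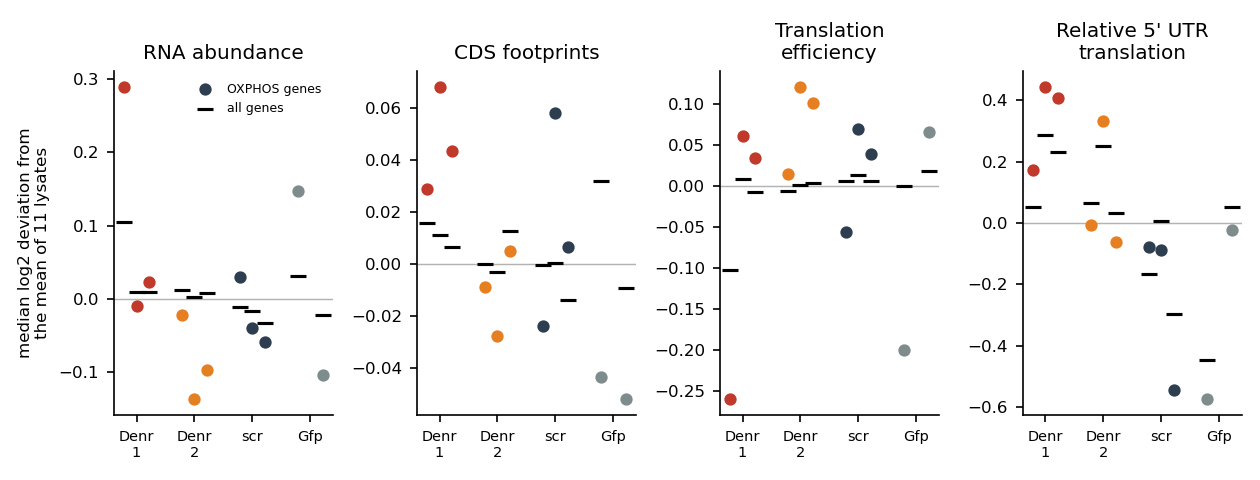
Median over the members in each lysate, as deviation from each gene's mean over the 11 lysates (log2), for RNA, CDS footprints, TE and relative 5′ UTR translation, with short bars for the median of all genes in the same lysate. Each point is one lysate of Denr shRNA1, Denr shRNA2, scramble (scr) or Gfp shRNA, and the panels have separate y axes. Denr shRNA1 replicate 1 stands at 0.29 in RNA and −0.26 in TE, and the footprint medians stay between −0.05 and 0.07.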

How the data were processed

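The authors deposited RPKM values of the CDS and the 5′ UTR of each gene in each of 22 libraries. According to the study's methods, the authors trimmed the reads with cutadapt, selected them by size, aligned them first to rRNA, tRNA and cDNA with Bowtie2 2.2.1 and then to the genome (GRCm38.p2) with TopHat2 2.0.11, chose expressed isoforms with Cufflinks 2.2.1, counted footprints by putative A-site and RNA reads by 5′ end, removed mitochondrially encoded and poorly covered genes, and scaled by the upper quartile with edgeR, separately for RPF-seq and RNA-seq. Levels are therefore relative within each library type. Whole reads were recovered from the steps between RPKM values and served for depth and filters. Counting error at this depth is small for the CDSs of the members and limits their 5′ UTRs. By the study's methods each replicate came from its own dish of cells, and p-values measure the spread between such dishes of one line.

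The comparison of knockdown with control lysates used log2(RPKM + 0.1) and limma 3.58.1 (lmFit, eBayes with trend; R 4.3.3), fitted on all 10516 genes, or for relative 5′ UTR translation on the 5175 covered genes, with p-values adjusted by the Benjamini-Hochberg method (FDR 0.1). No filter beyond the authors' was set on CDS levels. TE is the RPF-seq minus the RNA-seq value of a lysate. Single ratios were compared by exact two-sided permutation over the 462 splits of the lysates, where the smallest possible p is 0.00216. Hairpins were compared within a fit of 4 groups. Gene symbols were found for 10505 of 10516 identifiers, and sequences and uORFs come from GENCODE vM21. The limma tests of RNA, CDS footprints and TE were checked on simulated counts without shifts shared by the genes of a lysate. That simulation did not include relative 5′ UTR translation. Scripts ran in Python 3.11.15 with pandas 2.3.3, numpy 2.4.6, scipy 1.17.1 and matplotlib 3.10.9.

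The members, lists and tests were chosen with earlier results of these data known. Genes were named by a rule: every member past the FDR, up to 8 per measure and direction, and the 17 of relative 5′ UTR translation in full; the 3 lowest and 3 highest changes per measure; per complex the highest and lowest levels; the extremes of control TE and of the 5′ UTR to CDS ratio; paralogues, Sdh genes and F1 subunits. Other lists are given by counts and extremes. CDS results of the citric acid cycle list are not reported here. Alternatives were pseudocounts of 0.01 and 1, a low-value filter of 1 RPKM, centring, no trend, voom on recovered reads, the interaction over libraries, GC and length correction, single hairpins, the replicate block and each lysate left out. The transcript with matching lengths was added after the data had been seen.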

Additional observations from a re-analysis of the deposited data

Results flagged for a closer look

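Of 66 groups of lysates examined, 6 held a lysate far from the others. Chance gives about 1 in 20 for independent groups, but these share libraries, and their genes were named for calls or extreme changes. Of the 6, 5 were Denr shRNA1 replicate 1 among the 6 knockdown lysates. The log2 RNA level of Sdha was 6.17 there and 5.84 to 5.91 in the other 5, and the members' median RNA deviation was 0.29 against −0.14 to 0.02. In TE this lysate was lowest, with 0.185 against 0.497 to 0.66 for Atp5o, 0.457 against 0.742 to 0.898 for Ndufb6 and a members' median deviation of −0.26 against 0.01 to 0.12. Among the control lysates, the TE of Uqcrq was 2.67 in Gfp replicate 1 and 3.15 to 3.26 in the other 4.

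Ndufa10 differed between the Denr hairpins by a test of the difference itself, with a log2 difference, shRNA2 minus shRNA1, of −0.49 in RNA (limma, adjusted p = 0.0800) and −0.45 in CDS footprints (adjusted p = 0.000952).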

How the results depend on the processing

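For CDS RNA abundance, the count of 0 members became 2 with the replicate block and GC and length correction, 1 with Denr shRNA2 alone and 0 to 1 with a lysate left out. For CDS footprints the count of 0 became 2 with GC and length correction, 1 with the low-value filter, with shRNA2 alone or with voom, 12 with the replicate block, 6 with the block and GC and length correction, 11 with scramble alone as control and 0 to 5 with a lysate left out. Their median change became −0.0299 with GC and length correction, −0.0458 with the block as well, 0.0848 with shRNA1 alone and 0.0101 with shRNA2 alone. TE calls stayed at 0 under all 24 alternatives. For relative 5′ UTR translation the count of 17 became 0 with GC and length correction, centring, Gfp alone, shRNA1 alone or shRNA2 alone, 1 with the low-value filter, 9 with scramble alone, 27 with the replicate block, 2 with the block and GC and length correction and 0 to 22 with a lysate left out. Their median of 0.51 became 0.16 with GC and length correction, 0.19 with centring and 0.17 with the block and that correction. Centring and the correction also take out the shift shared by all covered genes. Between the Denr hairpins the block gave 17 members in RNA and 6 in footprints, and leaving out a lysate gave 0 to 1 and 1 to 2. Between the control hairpins footprint calls were 0 without trend, 6 with the block and 0 to 11 with a lysate left out. In relative 5′ UTR translation, Ndufb11 became 0.24 with Gfp alone, Sdhb −0.24 with GC and length correction, −0.21 with centring, −0.22 with block and correction, −0.0901 with scramble alone and −0.0133 without Gfp replicate 1 (up to 0.275 with another lysate left out), and Uqcr11 −0.22, −0.20 and −0.18 with the first 3 of these and −0.0005 without scramble replicate 3 (up to 0.207). The share of members with an uORF was 57.3% on the longest 5′ UTR. The causes were not tested, and the shares of all genes called under each alternative are not given here. The replicate numbers do not pair the lysates by the labels. Of 15 same-numbered pairs, 10, 13 and 10 had correlated deviations over 0.1 in RNA, footprints and TE. Of 30 pairs with different numbers, 5, 4 and 4 did. In the same order, 7, 9 and 9 of 11 lysates correlated best with their own number. This is a hint from the data and not the design, and the main fits used no block. Beside the counts given, 5′ UTR reads limit what could be tested, in 36 of 75 members entirely.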
